A study of Mus musculus with 6 samples.

Results

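The genes described here are 9 genes of the retinal pigment epithelium and the visual cycle, *Rpe65*, *Lrat*, *Rdh5*, *Rgr*, *Stra6*, *Ttr*, *Kcnj13*, *Rdh10* and *Best1*, out of 55421 genes listed in the count table. They were chosen by name, with earlier results of these data known, and each was matched by its symbol. RNA was sequenced from whole retinas of 2-month-old mice, of which 3 came from *Yap* cKO animals (YR711, YR713, YR714) and 3 from control animals (YR612, YR613, YR615). Control animals were *Yap*fl/fl, and *Yap* cKO animals were *Yap*fl/fl;*Rax-Cre*ERT2. All 6 animals carried the floxed *Yap* alleles, and all received 4-hydroxytamoxifen at postnatal days 10 and 14. The controls carried no Cre, so that the presence of Cre and the loss of *Yap* cannot be told apart. According to the study, the *Rax*-driven Cre is active in Müller glia and in the non-pigmented epithelium of the ciliary body. The pigment epithelium is not among the cells named there. Each retina was freed by a cut below the ora serrata and lifted out at the base of the optic nerve.

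The pigment epithelium is a single layer of melanin-bearing cells that lies against the tips of the photoreceptors. After light has turned 11-cis-retinal into all-trans-retinal, the all-trans form is reduced to retinol in the photoreceptor and passed to the pigment epithelium. There Lrat esterifies it, Rpe65 turns the ester into 11-cis-retinol, and Rdh5 oxidises that to 11-cis-retinal, which returns to the photoreceptor. The same cells take up vitamin A from the blood and move ions and water away from the retina. They adhere loosely to the retina and are in part left behind when the retina is dissected.

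Total counts per retina lay between 24261799 and 35067068, with normalization factors (TMM) from 0.986 to 1.02. *Yap1*, the targeted gene, stood at 9.48, 9.52 and 9.83 TPM (each gene's share of the transcripts, with gene length taken into account) in the control retinas and at 3.99, 3.76 and 3.94 TPM in the *Yap* cKO retinas. The groups did not overlap and *Yap1* fell by 1.36 on the log2 scale (SE 0.093, adjusted p = 0.000282, edgeR's quasi-likelihood test). The rod gene *Gnat1*, which encodes the alpha subunit of rod transducin, ranked 3 among all genes by level in the control retinas. Relative expression went with gene length differently from retina to retina, with Spearman correlations across genes of 0.396, 0.385 and 0.172 in YR711, YR713 and YR613 and of -0.151, -0.405 and -0.413 in YR714, YR615 and YR612. Genes are not independent replicates. The part of this trend in the results was not tested beyond a fit with length-corrected offsets, which is given below.

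In *Yap* cKO retinas, 7 of the 9 genes were below every control in YR711 and, somewhat less so, in YR713. These were *Rpe65*, *Lrat*, *Rdh5*, *Rgr*, *Stra6*, *Ttr* and *Kcnj13*. In YR714, *Lrat* stood at 1.79 times the control mean, and the other 6 lay between 0.913 and 1.12 times it. *Rdh10* was level across all 6 retinas, and *Best1* stood near 1 TPM throughout. All 9 genes passed the filter on low counts, and 0 of 9 were called differentially expressed, against 0.796% of the 16575 genes tested. To be called, a gene needed a mean TPM of 5 or more in 1 group, a change of 1.5-fold or more and an adjusted p no greater than 0.05 in edgeR's quasi-likelihood test, where p-values were adjusted over all tested genes by the Benjamini-Hochberg method. None reached an adjusted p of 0.05 (1.49% of all genes did, and 0.989% in the lower direction). At an unadjusted p of 0.05 or less, *Rpe65* and *Stra6* made 2 of 9 (21.4% of all genes, and 9.42% in the lower direction), and DESeq2, edgeR's likelihood ratio test and limma-voom also called 0 of 9. The point estimate was negative for all 9 genes, with a median log2 fold change of -0.70, against 49.7% of all genes with a negative estimate and a median of 0.0017. *Rpe65* was the only gene of the 9 whose 3 *Yap* cKO retinas all lay below the 3 control retinas, an arrangement found in 9.04% of all genes tested. The study describes its 3 replicates of each group as independent, and they were taken as separate animals. The tests thus measure the spread between 3 animals of each group, and an exact permutation test of 3 against 3 cannot go below a two-sided p of 0.1.

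Summed over the 9 genes, the level was 747, 828 and 784 TPM in the control retinas, and 275, 454 and 805 TPM in YR711, YR713 and YR714. The sum thus lay far below the controls in YR711, below them in YR713 and within their range in YR714. Taken gene by gene, the median ratio to the control mean was 0.317 in YR711, 0.548 in YR713 and 1.01 in YR714. In whole tissue, fewer cells of a type and less RNA per cell cannot be told apart.

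**Figure D1:**
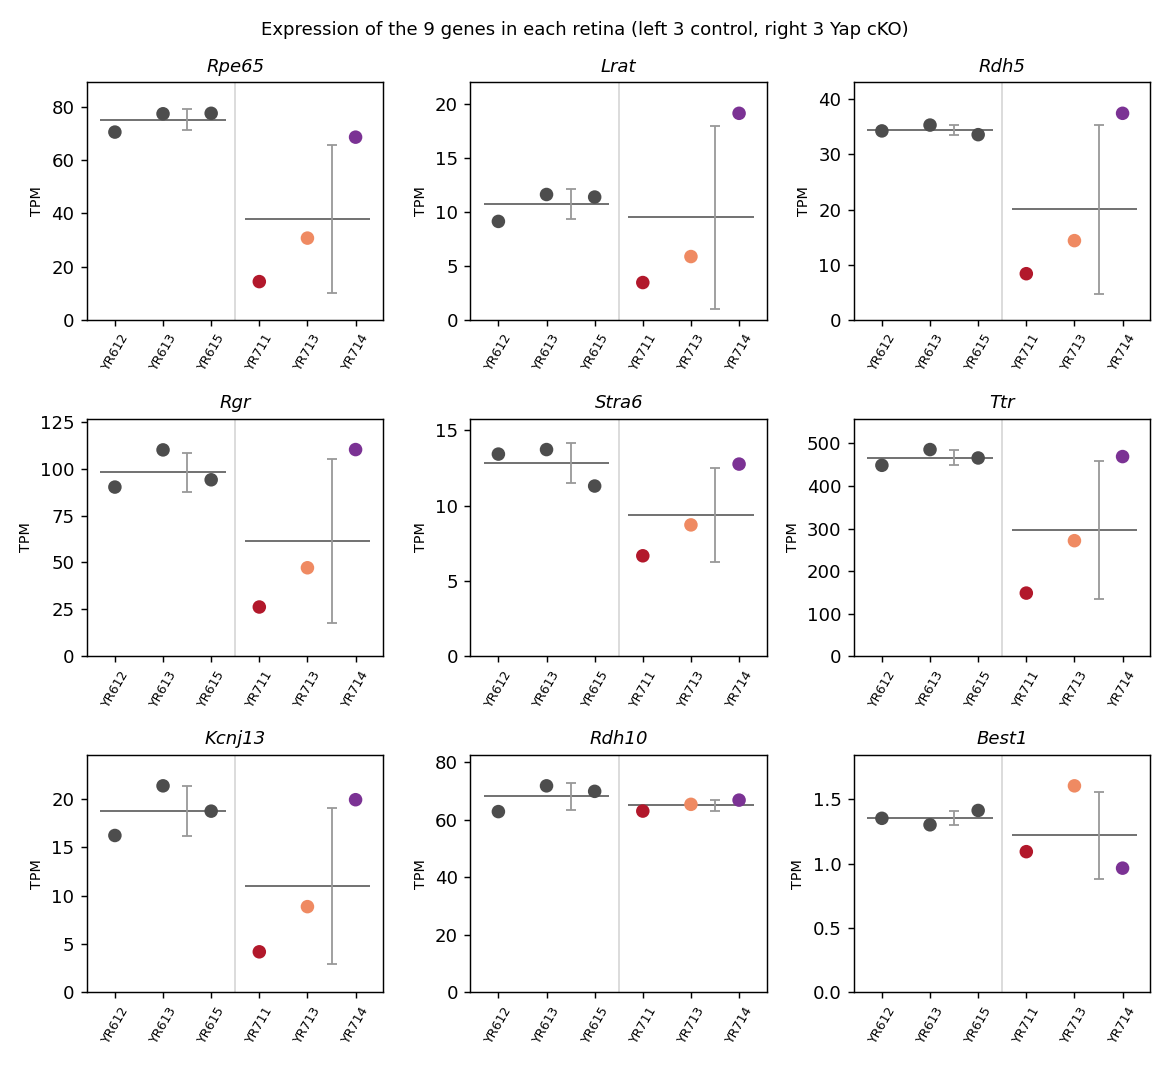
Level of each of the 9 genes in every retina, in TPM, with 3 control retinas on the left and 3 *Yap* cKO retinas on the right of each panel, a line at each group mean and error bars of 1 SD. For *Rpe65* the *Yap* cKO retinas spread from 14.3 to 68.6 TPM while the controls stay between 70.5 and 77.5 TPM, and for *Rdh10* all 6 retinas lie between 62.8 and 71.7 TPM.

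*Rpe65* (ENSMUSG00000028174, chr3:159599175-159625321 in GRCm38, plus strand) encodes the isomerohydrolase that makes 11-cis-retinol. Its level was 70.5, 77.3 and 77.5 TPM in the control retinas, and 14.3, 30.7 and 68.6 TPM in YR711, YR713 and YR714. The controls were tightly grouped, whereas the *Yap* cKO retinas covered a 4.78-fold range whose highest retina came just under the lowest control. In YR714 the 95% counting interval of 64.2 to 73.2 TPM overlapped that of the lowest control, 65.9 to 75.2 TPM. The group means were 75.1 ± 4.02 TPM and 37.8 ± 27.8 TPM (SD, n = 3 each). The log2 fold change was -1.03 (SE 0.42, 95% interval -1.98 to -0.09, adjusted p = 0.201).

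*Lrat* (ENSMUSG00000028003, chr3:82892579-82903973, minus strand) encodes the acyltransferase that stores retinol as esters, the substrate of Rpe65. Control retinas held 9.12, 11.6 and 11.4 TPM, and the *Yap* cKO retinas held 3.45, 5.86 and 19.1 TPM. YR711 and YR713 lay below the controls, but YR714 lay above all of them, and its 95% counting interval of 17.8 to 20.6 TPM did not reach the interval of the highest control, 10.54 to 12.77 TPM. The log2 fold change of -0.22 (SE 0.49, 95% interval -1.33 to 0.89, adjusted p = 0.817) therefore averaged retinas on either side of the controls, and its sign turned when YR711 or YR713 was left out (0.17 and 0.046).

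*Rdh5* (ENSMUSG00000025350, chr10:128913593-128922888, minus strand) encodes the 11-cis-retinol dehydrogenase that completes the pathway. It measured 34.3, 35.3 and 33.6 TPM in the controls and 8.36, 14.4 and 37.5 TPM in YR711, YR713 and YR714. The controls differed little from each other (34.4 ± 0.876 TPM, SD, n = 3), and YR714 was the highest of the 6 retinas. Between groups the log2 fold change was -0.83 (SE 0.42, 95% interval -1.77 to 0.12, adjusted p = 0.285). *Rdh5* shares 25.6% of its exonic bases with *Bloc1s1* on the same strand, where fragments could not be given to either gene, so its level may be underestimated.

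*Rgr* (ENSMUSG00000021804, chr14:37034909-37048964, minus strand) encodes an opsin of the pigment epithelium and Müller glia that turns all-trans-retinal back to the 11-cis form in light. It stood at 90.3, 110.1 and 94.1 TPM in the controls and at 26.2, 47.2 and 110.3 TPM in the *Yap* cKO retinas. Again YR711 was lowest, YR713 lay between, and YR714 was highest, within counting error of the highest control. This gave a log2 fold change of -0.72 (SE 0.41, 95% interval -1.64 to 0.19, adjusted p = 0.325).

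*Ttr* and *Stra6* serve the delivery of vitamin A. *Ttr* (ENSMUSG00000061808, chr18:20665280-20674321, plus strand) encodes transthyretin, which carries thyroxine and retinol-binding protein, and was the most abundant of the 9 genes. The controls held 449, 486 and 466 TPM, and the *Yap* cKO retinas 148, 271 and 469 TPM, with YR714 inside the control range. Its log2 fold change was -0.70 (SE 0.32, 95% interval -1.43 to 0.02, adjusted p = 0.244). *Stra6* (ENSMUSG00000032327, chr9:58063788-58153996, plus strand), the membrane receptor through which cells take up retinol from its binding protein, had the same order in a narrower range. It measured 13.4, 13.7 and 11.3 TPM in the controls and 6.66, 8.71 and 12.8 TPM in YR711, YR713 and YR714. YR714 reached 1.91 times the level of YR711, less than for the 6 genes above and below, where that ratio ran from 3.17 to 5.55. For *Stra6* the log2 fold change was -0.50 (SE 0.21, 95% interval -0.98 to -0.02, adjusted p = 0.217).

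*Kcnj13* and *Best1* encode ion channels of the pigment epithelium. They differed in how the retinas were ordered, but for *Best1* the order lay within counting error. *Kcnj13* (ENSMUSG00000079436, chr1:87386363-87394729, minus strand), the inward rectifier potassium channel of the apical membrane, had 16.2, 21.4 and 18.7 TPM in the controls and 4.19, 8.87 and 19.9 TPM in the *Yap* cKO retinas. The value in YR711 rested on 34 counts (95% counting interval 23.5 to 47.5 counts). The log2 fold change was -0.82 (SE 0.42, 95% interval -1.75 to 0.12, adjusted p = 0.283). *Best1* (ENSMUSG00000037418, chr19:9985174-10001633, minus strand), the calcium-activated chloride channel bestrophin 1, had 1.35, 1.30 and 1.41 TPM in the controls and 1.09, 1.604 and 0.965 TPM in the *Yap* cKO retinas. These values rested on 17 to 36 counts per retina, YR713 was the highest and YR714 the lowest, and the log2 fold change was -0.19 (SE 0.26, 95% interval -0.76 to 0.39, adjusted p = 0.694). At this depth a change of *Best1* within that interval was not detectable.

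*Rdh10* (ENSMUSG00000025921, chr1:16105774-16133734, plus strand), a dehydrogenase of all-trans-retinol found in the pigment epithelium and in Müller glia, did not follow the other genes in size. It held 62.8, 71.7 and 69.8 TPM in the controls and 63.0, 65.3 and 66.8 TPM in YR711, YR713 and YR714. The *Yap* cKO retinas all lay within the control range and differed by at most 1.06-fold. The log2 fold change was -0.12 (SE 0.075, 95% interval -0.29 to 0.05, adjusted p = 0.360), an interval that leaves out a fall of the size estimated for *Rpe65*.

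After the values were seen, the order of the retinas was counted over all genes for comparison. YR711 was lowest, YR713 intermediate and YR714 highest among the *Yap* cKO retinas for 8 of the 9 genes, all but *Best1*, and for 20.2% of the genes tested. For *Rdh10* and for *Best1* the order lay within counting error. Both YR711 and YR713 lay below every control for 7 of 9 genes (17% of all genes), and for 6 of 9 this held while YR714 did not lie below every control (7.95%). YR714 was at least 2 times YR711 for 6 of 9 genes, *Rpe65*, *Lrat*, *Rdh5*, *Rgr*, *Ttr* and *Kcnj13*, compared with 2.14% of all genes. In YR714, *Lrat*, *Rdh5* and *Rgr* lay above the highest control, *Stra6*, *Ttr*, *Kcnj13* and *Rdh10* lay within the control range, and *Rpe65* and *Best1* lay below it. Across the 6 retinas, log2 CPM of *Rpe65* had a Pearson r of 0.997 with *Ttr*, 0.992 with *Kcnj13*, 0.991 with *Rdh5*, 0.988 with *Rgr*, 0.966 with *Stra6*, 0.905 with *Lrat*, 0.894 with *Rdh10* and 0.222 with *Best1*. These are descriptions over retinas of both groups that share libraries and depth.

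The sequences before the transcription start are shown for *Rpe65*, *Rgr* and *Kcnj13*, which moved together over the retinas. That of *Best1*, whose order over the retinas lay within counting error, is also shown. RefSeq windows of 250 bases (GRCm38.p6) were found for 7 of the 9 genes, all but *Ttr* and *Rdh10*. Capitals mark TAATCC or GGATTA (the motif bound by OTX factors), CATGTG or CACATG (an E-box bound by MITF) and GGAATG or CATTCC (the motif bound by TEAD factors, the DNA-binding partners of YAP). Both strands were searched. The windows, written along the strand of the gene, are chr3:159598931-159599180 for *Rpe65*, chr14:37049015-37049264 for *Rgr*, chr1:87394730-87394979 for *Kcnj13* and chr19:10001634-10001883 for *Best1*.
Rpe65: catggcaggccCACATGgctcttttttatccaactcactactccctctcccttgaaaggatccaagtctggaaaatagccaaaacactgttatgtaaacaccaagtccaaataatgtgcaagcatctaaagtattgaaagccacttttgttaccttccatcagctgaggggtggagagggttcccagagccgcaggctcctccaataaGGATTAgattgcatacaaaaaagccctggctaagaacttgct
Rgr: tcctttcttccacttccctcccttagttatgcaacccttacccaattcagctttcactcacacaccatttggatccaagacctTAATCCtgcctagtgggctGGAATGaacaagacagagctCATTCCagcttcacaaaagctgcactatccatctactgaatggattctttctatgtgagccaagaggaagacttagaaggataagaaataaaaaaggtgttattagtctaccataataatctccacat
Kcnj13: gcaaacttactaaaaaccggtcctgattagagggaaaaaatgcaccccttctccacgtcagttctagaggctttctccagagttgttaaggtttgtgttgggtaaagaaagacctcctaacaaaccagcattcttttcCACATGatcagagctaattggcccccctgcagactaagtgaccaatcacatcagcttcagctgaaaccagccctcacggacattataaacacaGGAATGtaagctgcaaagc
Best1: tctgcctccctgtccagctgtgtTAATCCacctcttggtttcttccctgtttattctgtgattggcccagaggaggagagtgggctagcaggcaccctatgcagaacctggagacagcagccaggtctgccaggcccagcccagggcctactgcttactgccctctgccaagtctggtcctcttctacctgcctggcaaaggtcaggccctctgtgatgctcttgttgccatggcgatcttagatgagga

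*Rpe65* held GGATTA 42 bases and CACATG 239 bases before the start. *Rgr* held TAATCC at 167 bases, GGAATG at 148 bases and CATTCC at 128 bases, *Kcnj13* held CACATG at 112 bases and GGAATG at 19 bases, and *Best1* held TAATCC at 227 bases. Of the windows not printed, that of *Lrat* held CATTCC at 208 bases, and those of *Rdh5* and *Stra6* held none of these letters. The OTX-type letters occurred in 6.25% of the 32851 RefSeq windows, the E-box in 12.3% and the TEAD-type letters in 12.6%. A match is a description of the letters and does not show that a factor binds there.

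Leaving out single retinas showed how far the comparison rested on YR714. Without YR714, 7 of the 9 genes were called lower. Of the 16841 genes tested in that fit, 2.66% were called, and 232 were called lower. *Rpe65* had a log2 fold change of -1.79 (SE 0.23, adjusted p = 0.00396), *Rdh5* -1.66, *Kcnj13* -1.56, *Rgr* -1.49, *Lrat* -1.26, *Ttr* -1.23 and *Stra6* -0.81. The adjusted p of the other 6 lay between 0.00164 and 0.0205. *Rdh10* (log2 fold change -0.16, adjusted p = 0.263) and *Best1* (-0.06, adjusted p = 0.912) were not called. That fit compares 2 *Yap* cKO retinas with 3 controls and was made on the same data, so its calls are not independent evidence. Without YR711 or without YR713, 0 of 9 genes were called, and the log2 fold change of *Rpe65* was -0.65 and -0.89. With offsets corrected for gene length, *Rpe65* stood at -0.96, and 0 of 9 genes were called. Without the filter on low counts, 5 of 9 were called lower. Of the 30129 genes in that fit, 1.22% were called, and 213 were called lower. The SE of *Rpe65* was 0.11 there, against 0.42 with the filter, although its counts were the same. These 5 calls thus do not measure the spread between animals.

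**Figure D2:**
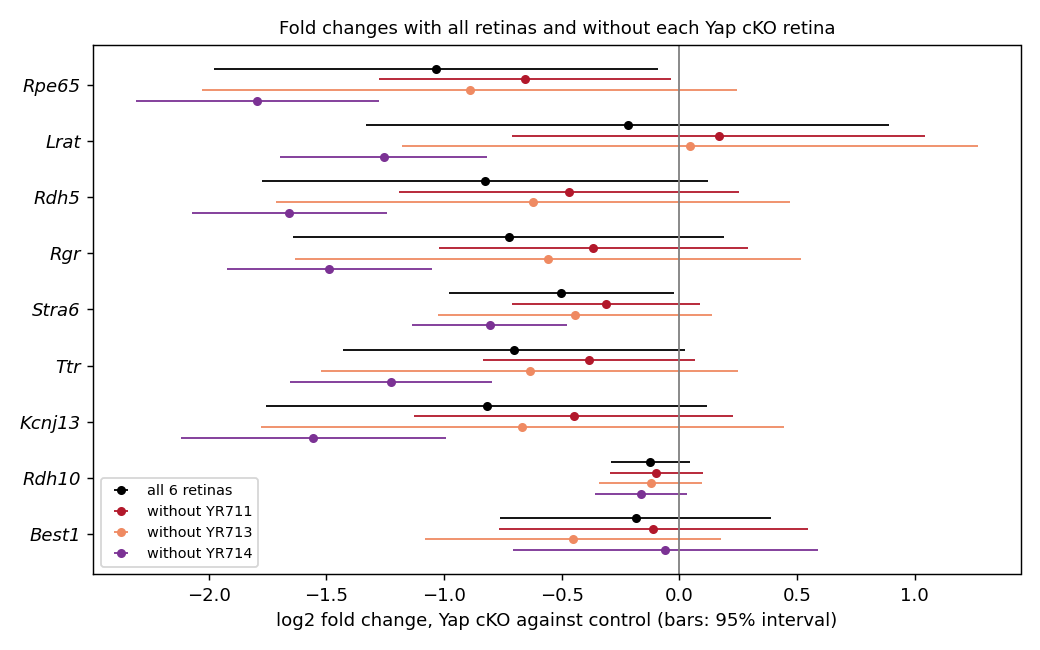
Log2 fold change of each of the 9 genes, *Yap* cKO against control, with all 6 retinas and with each *Yap* cKO retina left out, and bars for the 95% interval. *Rpe65* moves from -1.03 with all retinas to -1.79 without YR714 and to -0.65 without YR711, whereas *Rdh10* stays close to 0.

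Other genes of the pigment epithelium were ordered alike across retinas in most cases. Of 15 such genes, none of them among the 9, YR711 and YR713 lay below every control for 11 (17% of all genes), and YR711 was lowest, YR713 between and YR714 highest of the *Yap* cKO retinas for 11 (20.2%). YR714 lay below every control for 6 of the 15 (20.2% of all genes), *Dapl1*, *Cldn19* and *Wfdc1* among them. All 3 *Yap* cKO retinas lay below every control for 5 (9.04%). Over the 15 genes, the median ratio to the control mean was 0.416, 0.555 and 1.01 in YR711, YR713 and YR714, close to the values of 0.317, 0.548 and 1.01 for the 9 genes. *Slc16a8*, the lactate transporter of the basal membrane, had 19.9, 17.4 and 18.9 TPM in the controls and 3.44, 9.79 and 21.3 TPM in the *Yap* cKO retinas, with a log2 fold change of -0.75 (SE 0.46, adjusted p = 0.365). Its *Yap* cKO retinas thus spanned the control range as those of *Lrat* and *Rgr* did. Among the 15, *Dapl1* alone was called lower (0.585% of all genes were). *Cldn19*, a tight junction gene, was lower with an adjusted p of 0.00610 but lay below the TPM minimum. It had 3.45, 3.87 and 2.90 TPM in the controls and 0.661, 1.21 and 0.652 TPM in YR711, YR713 and YR714 (log2 fold change -2.03, SE 0.25). *Dapl1* had 143, 128 and 162 TPM in the controls and 85.5, 77.2 and 83.0 TPM in the *Yap* cKO retinas, with YR714 no higher than YR711 (log2 fold change -0.88, SE 0.11, adjusted p = 0.00789, and 0.0548 without YR615). *Krt18* and *Enpp2*, which with *Dapl1* are the most abundant genes of the list, had log2 fold changes of -0.02 and -0.22 (adjusted p = 0.911 and 0.337), and *Wfdc1* had -0.43 (adjusted p = 0.351).

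Melanin genes, which the pigment epithelium shares with the pigmented ciliary epithelium, the iris and the choroid, were below the control level in YR714. In YR714, 2 of the 9 genes and 6 of the 15 other pigment epithelium genes lay below every control (20.2% of all genes). All 10 melanin genes did so. Their sum was 103, 97.1 and 96.2 TPM in the controls and 28.0, 68.5 and 43.6 TPM in YR711, YR713 and YR714, so that YR713 and not YR714 was the highest. YR713 was the highest *Yap* cKO retina for 7 of the 10, for 1 of the 9 (*Best1*), and for 27.1% of all genes. *Pmel*, which builds the fibrils of melanosomes, was the only one called (0.585% of all genes were called lower), at 26.3, 19.7 and 26.1 TPM in the controls and 4.30, 11.5 and 3.96 TPM in the *Yap* cKO retinas. Its log2 fold change was -1.89 (SE 0.35, adjusted p = 0.0347), and the call was lost without YR612 (adjusted p = 0.160), YR615 (0.157) or YR711 (0.0717). The melanin enzymes *Dct* and *Tyrp1* had log2 fold changes of -1.20 and -1.10 (adjusted p = 0.0957 and 0.0904), and *Slc24a5* and *Gpnmb* had -0.51 and -0.64 (adjusted p = 0.107 and 0.258).

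Of 6 ciliary body genes tested, 5 lay below every control in all 3 *Yap* cKO retinas (9.04% of all genes), all but *Col9a1*, and 2 were called lower (0.585% of all genes). This list, like the others, was chosen with earlier results of these data known, so its counts are a description. The sum over all 7 genes listed was 96.3, 95.3 and 101 TPM in the controls and 37.5, 44.3 and 32.8 TPM in YR711, YR713 and YR714. *Optc*, a proteoglycan of the vitreous made by the ciliary epithelium, had 50.2, 45.6 and 48.2 TPM and 2.86, 8.39 and 2.44 TPM (log2 fold change -3.41, SE 0.36, adjusted p = 0.00243). The anion exchanger gene *Slc26a4* had 8.87, 8.64 and 7.74 TPM and 0.201, 0.444 and 0.0941 TPM (log2 fold change -5.03, SE 0.30, adjusted p = 0.000216). In both, YR714 was the lowest retina, unlike for 8 of the 9 genes, and *Rpe65* had r = 0.653 with *Optc* and r = 0.614 with *Pmel* across the 6 retinas. *Col9a1*, *Zic1* and *Zic2*, the most abundant of the others, had log2 fold changes of -0.24, -0.46 and -0.56 (adjusted p = 0.200, 0.0997 and 0.101). *Msx1* did not pass the filter on low counts.

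**Figure D3:**
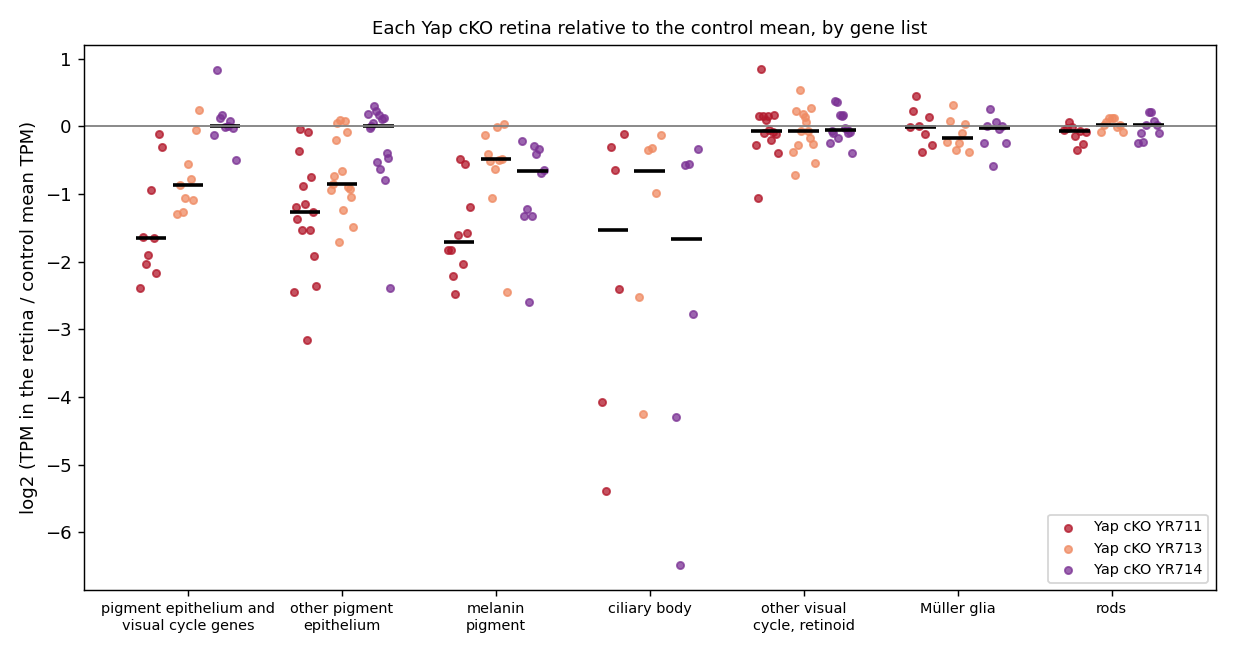
TPM in each *Yap* cKO retina relative to the control mean, on the log2 scale, for every tested gene of 7 lists, with 1 point per gene, 1 colour per retina and a black line at the list's median. For the 9 genes the median ratio goes from 0.317 in YR711 to 1.01 in YR714, whereas for the melanin genes it is 0.305 and 0.632 and for the ciliary body genes 0.413 and 0.410.

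**Figure D4:**
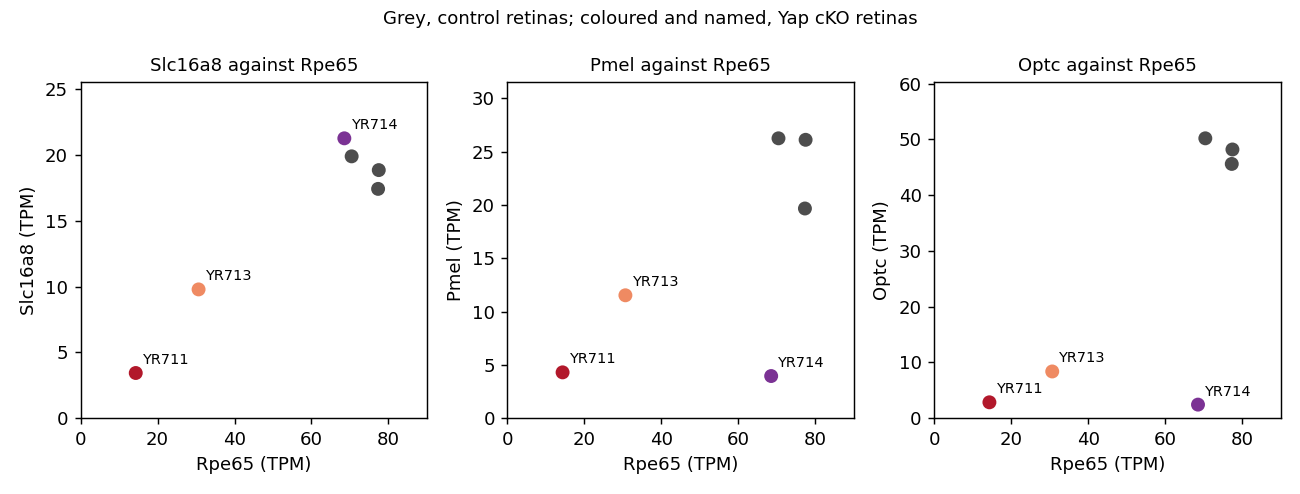
Level of *Rpe65* in each retina against that of *Slc16a8*, *Pmel* and *Optc*, in TPM, with 1 point per retina, grey for control and coloured and named for *Yap* cKO. *Slc16a8* and *Rpe65* are both low in YR711 and YR713 and both near the controls in YR714, and YR714 has *Rpe65* at 68.6 TPM beside *Pmel* at 3.96 TPM and *Optc* at 2.44 TPM. Of the 15 other pigment epithelium genes, 6 lie below every control in YR714, so that *Slc16a8* does not stand for all of them.

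Rod, cone and Müller glia genes differed less between the retinas. YR714 was at least 2 times YR711 for 0 of them, against 2.14% of all genes, so that a count of 0 in lists of this size says little. The summed TPM of 9 rod genes lay between 59174 and 63049 in the controls and between 56315 and 60872 in the *Yap* cKO retinas, and those of 7 cone genes lay between 1965 and 2040 and between 2011 and 2295. For 8 Müller glia genes the sums were 5456 to 5850 and 5024 to 5658 TPM. None of the rod, cone or Müller glia genes was called or reached an adjusted p of 0.05, with 0 of 9, 2 of 7 and 4 of 8 at an unadjusted p of at most 0.05, against 21.4% of all genes. Of 4 connective tissue genes tested, 0 were called (0.796% of all genes). *Col1a2* alone reached an adjusted p of 0.05 (0.00236), below the TPM minimum (1.49% of all genes reached that adjusted p). *Col1a2* had 3.09, 3.11 and 4.37 TPM in the controls and 0.794, 1.06 and 0.577 TPM in YR711, YR713 and YR714 (log2 fold change -2.16, SE 0.22). *Lum* and *Dcn* did not pass the filter. How much pigment epithelium stayed on each retina was not measured, and its part in the levels of the 9 genes was not tested.

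Visual cycle and retinoid genes outside the 9 moved little. Of 14 tested, 0 were called (0.796% of all genes), 1 reached an adjusted p of 0.05, and the median log2 fold change was -0.07. Their median ratio to the control mean was 0.956, 0.954 and 0.962 in YR711, YR713 and YR714, near level in each retina. *Rrh*, the pigment epithelium opsin peropsin, had 14.03, 13.58 and 15.54 TPM in the controls and 10.97, 9.84 and 10.94 TPM in the *Yap* cKO retinas. It was lower by 0.50 on the log2 scale (SE 0.10, adjusted p = 0.0472), a fold change under 1.5, with an adjusted p between 0.0185 and 0.235 when single retinas were left out. *Rlbp1*, the 11-cis-retinoid carrier of pigment epithelium and Müller glia, had 908, 933 and 967 TPM and 775, 718 and 789 TPM, with no overlap between the groups (log2 fold change -0.36, SE 0.075, adjusted p = 0.0540). The photoreceptor genes *Rbp3*, *Rdh12* and *Abca4* had log2 fold changes of 0.04, 0.09 and 0.06 (adjusted p = 0.856, 0.503 and 0.774). *Dhrs9* was not tested, since it did not pass the filter.

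Outside these lists, the 5 genes most like *Rpe65* in log2 CPM over the 6 retinas were *Htatip2* (r = 0.997), *Gm10637* (0.994), *Utp18* (0.994), *Gm42984* (0.992) and *Ppcdc* (0.991). They shared its order among the *Yap* cKO retinas, with YR711 lowest and YR714 highest, in a smaller range over the 6 retinas, from 1.24 to 1.74 TPM for *Htatip2* and from 12.4 to 15.2 TPM for *Utp18*, and none was called. Among the 16574 other genes tested, 95 (0.573%) had an r of at least 0.95 with *Rpe65*.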

How the data were processed

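RNA from 6 retinas was sequenced as stranded libraries and, per the submitters' notes, aligned with STAR 2.7.3a. The authors deposited raw counts per gene, 1 column per retina, made with featureCounts 1.6.2 on exons (strand setting 2, GRCm38, annotation release 98), with each gene's exonic length. Of 55421 genes, 55154 received a symbol from the GENCODE annotation, and 267 did not. Groups came from the labels, which name no batch, sex or litter.

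TPM was computed from counts and exonic length. Genes were filtered with filterByExpr by group, scaled by TMM and compared by the quasi-likelihood test of edgeR 4.0.16 in R 4.3.3, without covariates, with Benjamini-Hochberg adjustment over 16575 genes and a common dispersion of 0.0126. Standard errors came from the F statistic. Counting intervals are exact Poisson intervals and cover counting error only. The fits were tested on simulated data, with the common dispersion for every gene and the same change in all *Yap* cKO retinas. That setting does not cover genes such as *Rpe65*, whose *Yap* cKO retinas differed. The members, lists and rules were chosen with earlier results of these data known. Named were the 9 genes, listed genes called or at an adjusted p of at most 0.05, at most 4 others per list with the highest mean TPM, and the 5 genes most like *Rpe65*. Alternatives were median ratio factors, library size only, no filter, DESeq2 1.42.0, the likelihood ratio test, limma-voom (limma 3.58.1), offsets corrected for length by loess (span 0.3), a minimum of 1 TPM, and each retina left out. Some genes that the rule names are not reported here.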

Additional observations from a re-analysis of the deposited data

How the results depend on the processing

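Of the 9 genes, 0 were called with median ratio factors, library size only, DESeq2, the likelihood ratio test, limma-voom, length-corrected offsets or a minimum of 1 TPM. Without the filter on low counts, 5 were called (*Rpe65*, *Rdh5*, *Rgr*, *Ttr*, *Kcnj13*) and 6 reached an adjusted p of 0.05, with the SE of *Rpe65* at 0.11 in place of 0.42, and 369 of all genes were called in place of 132. DESeq2 called 263 and the likelihood ratio test 291 of all genes. The causes were not tested. The 5 calls without the filter rest on smaller SEs for genes whose counts were the same, so they do not measure the spread between animals. With single retinas left out, calls ranged from 0 to 7 of the 9 genes, likewise 0 to 7 at an adjusted p of 0.05, and from 38 to 516 of all genes, with 40 without YR612, 516 without YR613, 38 without YR615, 68 without YR713 and 448 without YR714. All 7 came without YR714. *Lrat* stood at -1.26 without YR714 and turned to 0.17 without YR711 and 0.046 without YR713. No paired analysis was possible because the labels give the groups no shared replicate numbers. Depth limits *Best1*, at 17 to 36 counts per retina.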
